A study of Mus musculus with 18 samples.

Results

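The total RNA comparison described here asked which transcripts of CD4+ T cells were highest or lowest in activated cells low in Hopx, in place of stepping evenly between naive cells and activated cells high in Hopx. Genes of the first kind turn in the middle group, and genes of the second kind are graded. For every gene, the mean of the 3 Hopx-low libraries was set against the average of the Hopx-high mean and the naive mean on a log2 scale. The comparison used 9 of the 18 libraries of the series, and 11320 of the 23219 features in the total RNA table had enough coverage to be tested.

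The libraries came from C57BL6 mice whose CD4+ T cells were collected from spleen and lymph nodes. For all groups the labels give the same treatment, an intraperitoneal injection, 5 days earlier, of chimeric antibodies that deliver antigen to dendritic cells. Hopx-low and Hopx-high cells were antigen-specific T cells activated by dendritic cells and differing in their level of Hopx, and naive cells were the comparison group, with 3 libraries in each group. The sources used here name no antigen, T cell receptor or age, nor the way in which Hopx levels were read. Nothing in the labels ties a library to an animal, so the p-values speak only of the spread among these libraries.

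Signals from the T cell receptor induce a first wave of transcription factors, among them the EGR zinc finger proteins, the NR4A orphan nuclear receptors and the AP-1 proteins. NF-kappaB is held in the cytoplasm by IkappaB proteins until signalling frees it, and several of its own inhibitors are its target genes, which makes a feedback loop. MYC, a further early product, drives the growth programme of activated T cells, in which ribosomes, polyamines and nucleotides are made ahead of division.

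Levels are bases of coverage over a gene per megabase of coverage in the library, and differences are on the scale log2(level + 1), followed by their standard error. A level of 1 stood for about 0.945 to 2.97 reads, depending on the library. Because this is bulk RNA, fewer cells of a type and less RNA per cell cannot be told apart. Hopx-low replicate 1 and Hopx-high replicate 3 stood apart: they held 104.9 and 109.7 megabases, against 205.7 to 329.4 in the others, and 18.0% and 18.9% of their bases lay over Lars2, a mitochondrial leucyl-tRNA synthetase gene, against 0.525% to 6.55%. Replicate 3 of every group had Xist and no Ddx3y coverage, and replicates 1 and 2 the reverse, so that sex was balanced over the groups. CD4 T cell markers summed to between 2208 and 3238 in every library, and the CD8 markers Cd8a and Cd8b1 to between 39.3 and 149.

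Hopx itself was no peak, which the grouping of the activated cells by Hopx level sets in advance. Its level was 5.90, 7.49 and 7.59 in Hopx-low, 34.2, 26.1 and 23.1 in Hopx-high and 1.76, 0 and 1.15 in naive libraries. All Hopx-low values lay above the naive ones and below the Hopx-high ones, and the Hopx-low contrast was 0.15 ± 0.38 (adjusted p = 0.96, limma with Benjamini-Hochberg adjustment over all features tested, as for every adjusted p below).

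In all, 93 genes passed the contrast at an adjusted p below 0.05, which is 0.822% of the features tested, and all 93 were higher in Hopx-low cells than the average of the other groups. The share of 0.822% is the one to set beside each count of called list members below. For 48 of the 93 (0.424% of the features tested) the Hopx-low mean was above both other means, and these are called peaks here. For the other 45 the Hopx-low mean lay between the others, far enough past their midpoint on the log2 scale for the contrast to pass. These are called plateaus here, also where the Hopx-low mean differed clearly from both others. No gene passed as lower (0%), although 394 were lower and 535 higher at an unadjusted p under 0.05. Other scalings did give lower calls, from 5 with totals without Lars2 to 12 with upper-quartile scaling. The contrast called 38 genes without Hopx-low replicate 3 and 44 without Hopx-low replicate 2. Over all features tested, whatever their p, the Hopx-low mean was the highest in 20.3%, the lowest in 22.5% and in between in 57.2%.

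A peak in this sense did not need a difference from Hopx-high cells. Of the 48 peaks, 5 passed at both steps, Hopx-low over naive and Hopx-low over Hopx-high (0.0442% of the features tested), 41 passed only over naive cells, and 2, Ppan and Mybbp1a, only over Hopx-high cells. Across the 48 the Hopx-low minus Hopx-high difference ranged from 0.05 to 1.31 with a median of 0.48, beside a median of 0.10 over all features tested. In 25 of the 48 every Hopx-low library lay above the other 6, as it did in 175 of all features tested (1.55%), a number that came to 713 without Hopx-low replicate 1 and to 263 without Hopx-low replicate 3. Leaving out Hopx-low replicate 3, Hopx-low replicate 2 or Hopx-high replicate 3 left 13, 19 and 29 called peaks.

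**Figure D1:**
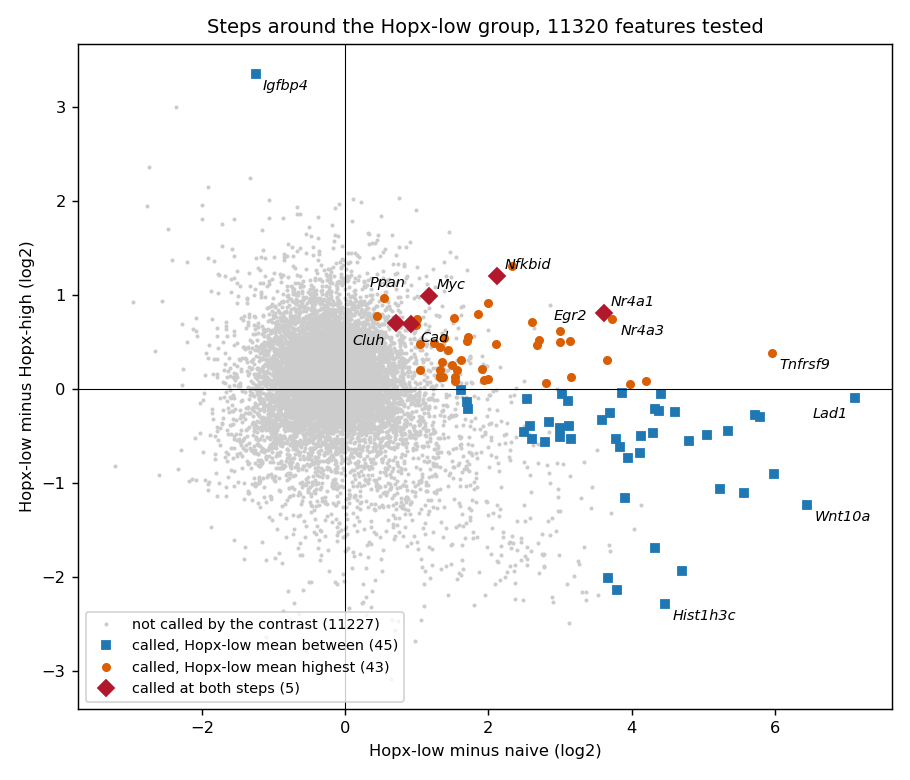
Each point is 1 of the 11320 features, with the Hopx-low minus naive difference on the x axis and the Hopx-low minus Hopx-high difference on the y axis, both in log2 units. Points in the upper right quadrant have their highest mean in Hopx-low cells, and the 5 genes that passed at both steps (diamonds) lie there with Nfkbid farthest up among them, while no called gene lies in the lower left quadrant.

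The 5 genes that passed at both steps were Nfkbid, Myc, Nr4a1, Cluh and Cad. Nfkbid encodes IkappaBNS, a nuclear IkappaB protein that modulates NF-kappaB target genes. Its level was 269, 385 and 327 in Hopx-low, 148, 141 and 132 in Hopx-high and 66.5, 69.6 and 85.9 in naive libraries. The groups did not overlap, and Hopx-high cells stood between the other groups. The Hopx-low mean exceeded the Hopx-high mean by 1.201 ± 0.19 (adjusted p = 0.00051) and the naive mean by 2.12 ± 0.19 (adjusted p = 3.8e-08). Nfkbid lies on chromosome 7 at 30421731 to 30428749 in GRCm38.p6, the assembly of all positions here.

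Myc, on chromosome 15 at 61985341 to 61990361, encodes the growth-promoting transcription factor. It had 334, 419 and 374 in Hopx-low, 246, 178 and 152 in Hopx-high and 176.5, 129 and 199 in naive libraries. The Hopx-low libraries were all above the other 6, and the Hopx-high and naive libraries overlapped each other. Hopx-low cells were higher by 0.99 ± 0.20 than Hopx-high cells (adjusted p = 0.0087) and by 1.17 ± 0.20 than naive cells (adjusted p = 0.00046), whereas Hopx-high minus naive was 0.18 ± 0.20 (adjusted p = 0.54).

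Nr4a1 encodes Nur77, an orphan nuclear receptor induced by T cell receptor signals, and lies on chromosome 15 at 101253902 to 101274795. Its level was 578, 701 and 592 in Hopx-low, 435.5, 374 and 276 in Hopx-high and 47.9, 57.8 and 45.05 in naive libraries. The 3 groups were apart, with both activated groups far above naive cells. Hopx-low exceeded Hopx-high cells by 0.80 ± 0.19 (adjusted p = 0.025) and naive cells by 3.61 ± 0.19 (adjusted p = 6.6e-12).

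Cad, on chromosome 5 at 31054620 to 31078479, encodes the enzyme that carries out the first steps of pyrimidine synthesis and is a known MYC target. It had 393, 477 and 415 in Hopx-low, 276, 281 and 236 in Hopx-high and 186, 251 and 241 in naive libraries, so that the Hopx-low libraries were above the other 6, which overlapped. Its Hopx-low mean was higher by 0.69 ± 0.17 than the Hopx-high mean (adjusted p = 0.036) and by 0.92 ± 0.17 than the naive mean (adjusted p = 0.0011).

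Cluh, on chromosome 11 at 74648881 to 74670854, encodes a cytosolic protein that binds messenger RNAs of mitochondrial proteins. Its level was 226, 336 and 237 in Hopx-low, 165, 155 and 162 in Hopx-high and 161, 158 and 163 in naive libraries. Hopx-high and naive cells were level with each other, and Hopx-low replicate 2 was the highest of all. Hopx-low cells were higher by 0.70 ± 0.18 than Hopx-high cells (adjusted p = 0.046) and by 0.70 ± 0.18 than naive cells (adjusted p = 0.017).

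In each of the 5 genes the step over Hopx-high cells had the larger adjusted p of the pair. Nfkbid passed at both steps with any 1 library left out, but it was the only one of the 5 to do so without Hopx-low replicate 2 or without Hopx-high replicate 3, and without Hopx-low replicate 3 Nfkbid and Myc did. Cluh and Cad did not pass at both steps without Hopx-high replicate 1 or 2, nor Cluh without naive replicate 2 or 3. Without both libraries rich in Lars2, 3 genes passed at both steps and Nfkbid was the only one of the 5 among them. With replicates 1 and 2 alone no gene did (limma, 23 genes in the contrast and 773 at an unadjusted p under 0.05). With upper-quartile scaling, which moved the median Hopx-low minus Hopx-high difference to -0.01, 7 genes passed at both steps, and of the 5 Nfkbid, Myc and Nr4a1 were among them. Without a filter on low levels 5 genes again passed at both steps, but of the 5 named here those were Nfkbid and Myc, and not Nr4a1, Cluh or Cad. With plain limma, without the trend and robust settings, 3 passed and Nfkbid was the only one of the 5 among them.

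**Figure D2:**
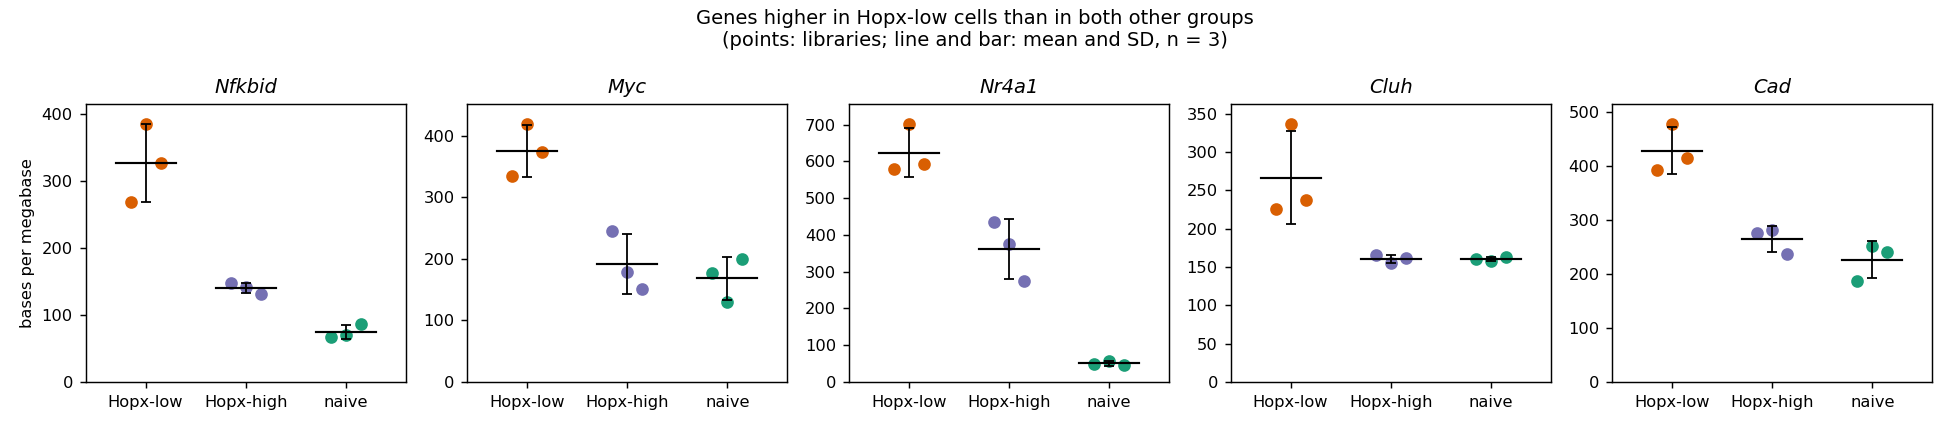
Levels in bases per megabase for the 5 genes that passed at both steps, with 1 point per library, a horizontal line at the group mean and a bar of 1 SD (n = 3). In each panel the 3 Hopx-low libraries lie above the 6 others, Nfkbid and Nr4a1 are also higher in Hopx-high than in naive cells, and Cluh is level in those groups.

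Sequence before listed start sites of Nfkbid, Nr4a1, Cluh and Cad is shown with known binding motifs marked, since these genes shared the peak in Hopx-low cells. Myc had no entry in the promoter set used. The 250 bases before a start site come from RefSeq (GRCm38.p6, plus strand), with exact matches to 10 motifs searched on both strands in capitals. A listed start need not be the outer end of the gene. The Nr4a1, Cluh and second Nfkbid windows lie inside the gene spans given above, and the Cad window overlaps its span. Other starts of these genes that the set did not list were not searched. RefSeq gave 3 start sites for Nfkbid. The window of the second, chr7:30422156-30422405, held an NF-kappaB site (GGGA, any 4 bases, CC) at bases 25 to 34 and a cAMP response element (TGACGTCA) at bases 200 to 207, and neither of the other windows held a match. No matches overlapped in the windows shown.
Nfkbid: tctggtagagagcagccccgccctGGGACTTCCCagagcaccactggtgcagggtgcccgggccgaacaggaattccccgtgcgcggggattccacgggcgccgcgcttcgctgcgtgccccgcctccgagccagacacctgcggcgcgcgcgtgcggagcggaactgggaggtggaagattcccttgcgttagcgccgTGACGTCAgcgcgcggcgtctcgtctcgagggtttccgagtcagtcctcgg
The Nr4a1 window, chr15:101266596-101266845, held an EGR site (GCGNGGGCG, here on the minus strand) at bases 191 to 199.
Nr4a1: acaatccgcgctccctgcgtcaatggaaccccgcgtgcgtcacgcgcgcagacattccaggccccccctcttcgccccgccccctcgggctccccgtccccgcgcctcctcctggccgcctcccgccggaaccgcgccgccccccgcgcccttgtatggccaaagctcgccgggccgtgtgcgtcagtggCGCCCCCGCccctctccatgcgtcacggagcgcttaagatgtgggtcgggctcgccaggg
The Cluh window, chr11:74649254-74649503, held an NF-kappaB site at bases 58 to 67, a CHR element (TTTGAA) at bases 98 to 103, an EGR site at bases 181 to 189 and the E-box bound by MYC (CACGTG) at bases 232 to 237.
Cluh: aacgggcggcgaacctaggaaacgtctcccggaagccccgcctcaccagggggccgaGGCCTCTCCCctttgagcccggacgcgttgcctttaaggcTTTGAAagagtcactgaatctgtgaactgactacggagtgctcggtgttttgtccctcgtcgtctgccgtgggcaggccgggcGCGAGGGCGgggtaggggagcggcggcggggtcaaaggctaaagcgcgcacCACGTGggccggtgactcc
The Cad window, chr5:31054530-31054779, held no match to these letters.
Cad: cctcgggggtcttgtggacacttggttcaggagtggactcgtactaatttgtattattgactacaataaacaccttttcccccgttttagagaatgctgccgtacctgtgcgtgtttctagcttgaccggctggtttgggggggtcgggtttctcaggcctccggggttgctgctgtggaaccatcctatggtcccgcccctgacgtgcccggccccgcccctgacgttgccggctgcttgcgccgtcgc

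Over the 48 called peaks, 38 genes had 70 such windows. The NF-kappaB letters stood in 34.3% of these, against 34.6% of 26 windows of plateaus, 22.4% of 10621 windows of features tested and 17.6% of all 32851 windows. Counted by gene, at least 1 window held them in 47.4% of the 38 peak genes, 37.5% of 24 plateau genes and 25.9% of 8356 features tested. A gene with more windows has more chances of a match, and peak genes had more windows each. The EGR letters stood in 12.9% of peak windows, against 3.85% of plateau windows, 8.92% of those of features tested and 4.70% of all. The E-box letters stood in 10% of peak windows, against 7.69%, 8.48% and 6.02% in the same order, and the CRE letters in 2.86%, against 0%, 2.64% and 1.55%. The AP-1 letters (TGANTCA) stood in 5.71% of peak windows and 4.09% of those of features tested, and the interferon response core (GAAA, any 2 bases, GAAA) in 0% and 2.76%. For the remaining motifs the shares in peak windows and in those of features tested were 2.86% and 7.23% for E2F (TTTNNCGC), 27.1% and 35.8% for the CCAAT box, 1.43% and 0.904% for NR4A (AAAGGTCA) and 11.4% and 10.4% for CHR. These are matches of letters and not sites of binding.

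Early response factors of the T cell receptor gave the largest group of peaks. Of the 21 tested, 9 passed as higher (Egr1, Egr2, Egr3, Nr4a1, Nr4a3, Nab2, Myc, Irf4 and Bhlhe40), and 8 of these 9 were peaks, Bhlhe40 being a plateau. The Hopx-low mean was the highest in 13 of the 21, which is 61.9% beside 20.3% of all features tested, and the median contrast was 0.74 beside -0.02. Against naive cells 11 members were called higher in Hopx-low, where 4.75% of all features tested were, and 10 in Hopx-high cells, where 8.41% were. Hopx-low cells had 1 member called lower than naive cells and Hopx-high cells had 4, where 3.64% and 15.1% of all features tested were.

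Egr2, a zinc finger factor that limits T cell activation, had 143, 147 and 155 in Hopx-low, 104, 102.5 and 82.9 in Hopx-high and 15.96, 21.1 and 16.2 in naive libraries. All 3 groups were apart, yet the Hopx-low minus Hopx-high difference of 0.62 ± 0.22 did not pass (adjusted p = 0.18), while the contrast was 1.81 ± 0.19 (adjusted p = 3.9e-06). Egr3 had 125, 166 and 147 in Hopx-low, 120.3, 109 and 81.1 in Hopx-high and 34.3, 10.7 and 13.8 in naive libraries, with a contrast of 1.75 ± 0.27 (adjusted p = 0.00063). Egr1, which encodes the founding member of the family, averaged 366 ± 60.8 in Hopx-low, 256 ± 43.5 in Hopx-high and 111 ± 12.7 in naive cells (SD, n = 3 each), and Hopx-low replicate 1 lay within the Hopx-high range.

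Nr4a3, an orphan receptor of the same family as Nr4a1, had 41.7, 46.5 and 41.7 in Hopx-low, 18.1, 38.3 and 23.5 in Hopx-high and 5.39, 1.05 and 1.90 in naive libraries, and its contrast was 2.23 ± 0.35 (adjusted p = 0.00073). Irf4, a factor whose level follows the strength of the receptor signal, had 129.5, 193 and 236 in Hopx-low, 146, 192 and 177 in Hopx-high and 12.04, 6.07 and 9.40 in naive libraries. Its activated groups overlapped fully, and its contrast of 2.14 ± 0.23 (adjusted p = 4e-06) came from the step over naive cells. Fos and Jun, the AP-1 partners in the list, did not pass: Fos spread from 91.6 to 428 in Hopx-low, 87.0 to 236 in Hopx-high and 86.6 to 159 in naive libraries, and Jun from 320 to 1229, 265 to 602 and 720.1 to 920.3 in the same order. Without both libraries rich in Lars2, Hopx-low replicate 1 and Hopx-high replicate 3, the contrast of Fos was 1.499 (adjusted p = 0.021) in place of 0.72 and that of Jun 0.99 (adjusted p = 0.018) in place of 0.28, and neither passed in any other setting, the adjusted p reaching 1 in both. In both genes replicate 1 was the lowest and replicate 3 the highest library of each group.

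The NF-kappaB list showed the Hopx-low mean on top most often: it was the highest in 12 of 13 members (92.3%, beside 20.3% of all features tested), Nfkbiz being the exception. It was above the Hopx-high mean in 13 of 13 (11 of 13 under upper-quartile scaling and under quantile normalization), where it was in 60.9% of all features tested. Of the 13, 3 passed the contrast, all peaks, where 0.822% of all features tested passed as higher. Against naive cells 8 were called higher in Hopx-low, where 4.75% of all features tested were, and 5 in Hopx-high, where 8.41% were, with 0 called lower in either. Besides Nfkbid the 3 called peaks were Nfkb2 and Relb, the pair that forms the transcription factor of the non-canonical pathway. Nfkb2 had 258, 284 and 258 in Hopx-low, 215, 209 and 230.1 in Hopx-high and 93.6, 101.2 and 117 in naive libraries, with all 3 groups apart. Its contrast was 0.82 ± 0.15 (adjusted p = 0.0045) and its Hopx-low minus Hopx-high difference 0.29 ± 0.17 (adjusted p = 0.52). Relb averaged 212 ± 36.1 in Hopx-low, 176 ± 14.6 in Hopx-high and 74.5 ± 11.9 in naive cells (SD, n = 3 each).

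None of the other 10 members passed, and in 9 of them the Hopx-low mean was the highest. Nfkb1 averaged 340.0 ± 50.6 in Hopx-low, 249 ± 53.1 in Hopx-high and 172 ± 49.5 in naive cells (SD, n = 3 each; contrast 0.74 ± 0.18, adjusted p = 0.066). Nfkbia, which encodes the classical cytoplasmic inhibitor, averaged 546 ± 123, 406 ± 46.4 and 320.2 ± 67.0 in the same order, and the deubiquitinase gene Tnfaip3 averaged 96.2 ± 22.4, 67.1 ± 17.7 and 56.6 ± 14.96. Nfkbie averaged 193 ± 58.9 in Hopx-low cells, against 186 ± 17.7 in Hopx-high cells, so that its rank on top rests on almost equal means. For Nfkbiz the averages were 88.4 ± 7.42, 77.8 ± 9.74 and 90.3 ± 9.97, with naive cells highest.

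The list of MYC-responsive ribosome biogenesis genes, which also holds metabolic genes such as Cad, differed from the early factors in where naive cells stood. Of the 34 tested, the Hopx-low mean was above the Hopx-high mean in 34 (33 under upper-quartile scaling), where it was in 60.9% of all features tested. The median difference was 0.63 beside 0.10 over all features tested. The step passed in 6 (Nop56, Rrp9, Pes1, Mybbp1a, Cad and Ppan), where 0.919% of all features tested were called higher, and Hopx-low cells were called lower in 0. Against naive cells 4 members, Cad among them but neither Ppan nor Mybbp1a, were higher in Hopx-low, where 4.75% of all features tested were. In Hopx-high cells 0 members were higher and 8 lower than in naive cells, where 8.41% and 15.1% of all features tested were. The summed level of the list was 2714 to 3330 in Hopx-low, 1778 to 2101 in Hopx-high and 2311 to 2411 in naive libraries, with no overlap between groups.

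Mybbp1a, a nucleolar MYB-binding protein, had 434, 573 and 512 in Hopx-low, 307, 298.5 and 276 in Hopx-high and 342, 373 and 398 in naive libraries. The Hopx-low libraries were highest and the Hopx-high libraries lowest, and the Hopx-low minus Hopx-high difference was 0.77 ± 0.16 (adjusted p = 0.011), while Hopx-low minus naive was 0.44 ± 0.16 (adjusted p = 0.11). Ppan, needed to mature the large ribosomal subunit, had 169, 205 and 188 in Hopx-low, 114, 86.0 and 87.0 in Hopx-high and 111, 139 and 138 in naive libraries, with a difference of 0.97 ± 0.19 from Hopx-high cells (adjusted p = 0.0064). Srm, the spermidine synthase of the polyamine pathway, had 110.1, 107 and 90.4 in Hopx-low, 64.2, 59.5 and 66.8 in Hopx-high and 45.7, 53.0 and 54.2 in naive libraries, and its contrast was 0.84 ± 0.18 (adjusted p = 0.021).

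Rrp9 and Pes1, both pre-rRNA processing factors, were called over Hopx-high cells without passing the contrast. Rrp9 had 139.5, 135 and 144.5 in Hopx-low, 86.5, 69.15 and 63.1 in Hopx-high and 106, 118.3 and 124 in naive libraries. Every Hopx-low library of Rrp9 was above the other 6, as in 14 of the 34 members and in 1.55% of all features tested. The cytosolic ribosomal proteins themselves gave 0 calls in the contrast among 78, and their Hopx-low mean was the highest in 24.4%, near the 20.3% of all features tested.

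**Figure D3:**
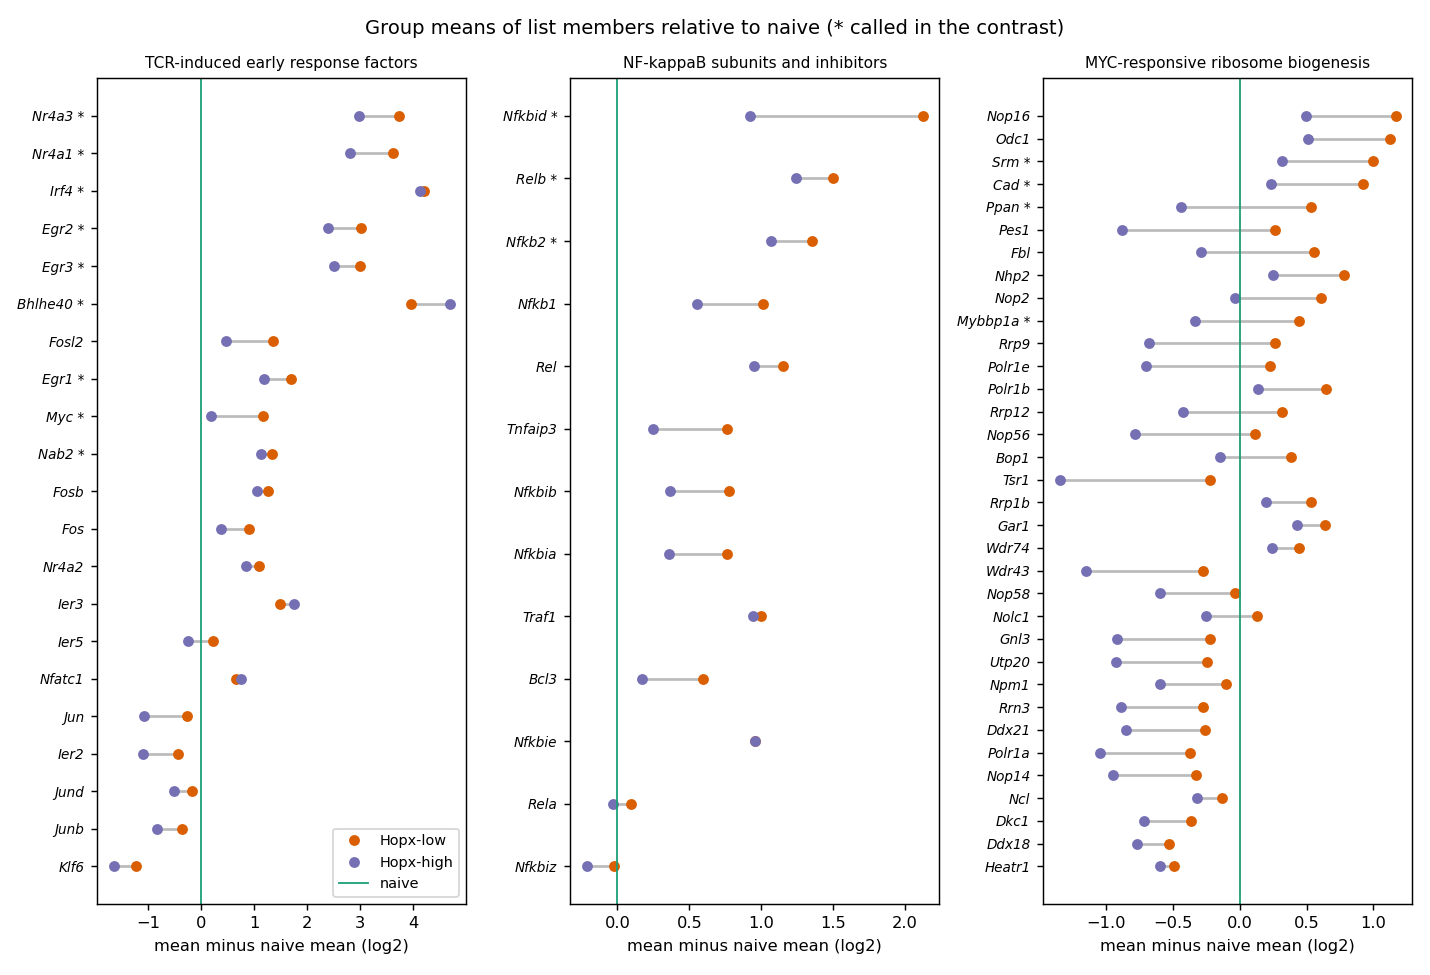
For the members of 3 lists, the Hopx-low mean (orange) and the Hopx-high mean (purple) are drawn as log2 differences from the naive mean (green line at 0), and a star marks genes called in the contrast. In the ribosome biogenesis panel all 34 orange points lie right of the purple ones and 20 lie right of both, and in the NF-kappaB panel 12 of 13 orange points lie farthest right.

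Growth and nutrient genes outside that list were also among the peaks. Slc19a1, the reduced folate carrier, had 145.5, 146 and 162 in Hopx-low, 111.5, 102 and 94.3 in Hopx-high and 33.1, 56.6 and 49.3 in naive libraries, with all groups apart and a contrast of 1.14 ± 0.19 (adjusted p = 0.0016). Shmt1 and Shmt2, the cytosolic and mitochondrial serine hydroxymethyltransferases that feed folate metabolism, had contrasts of 1.57 ± 0.33 (adjusted p = 0.016) and 0.76 ± 0.18 (adjusted p = 0.046), with Hopx-low and Hopx-high libraries overlapping in both. Their steps over Hopx-high cells did not pass (adjusted p = 0.67 and 0.31). Their contrasts had an adjusted p below 0.05 in 15 and 11 of 24 other settings, whatever the threshold of the setting. Slc7a5, a subunit of a leucine transporter, averaged 116 ± 14.5 in Hopx-low, 68.5 ± 5.33 in Hopx-high and 58.4 ± 13.8 in naive cells (SD, n = 3 each), and every Hopx-low library was above the other 6. Among 19 genes of amino acid transport and the ATF4 response, Slc7a5 and Shmt2 were the 2 called.

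Surface receptors of activated T cells divided between peaks and plateaus. Tnfrsf9, the costimulatory receptor 4-1BB, was the largest peak by contrast among genes of at least median level, at 3.18 ± 0.22 (adjusted p = 1.5e-08). It had 171, 241 and 242.5 in Hopx-low, 177, 153.5 and 165 in Hopx-high and 2.19, 3.79 and 1.72 in naive libraries. The activated groups overlapped in Hopx-low replicate 1, and their difference was 0.39 ± 0.26 (adjusted p = 0.57). Tnfrsf18, the receptor GITR, averaged 176 ± 14.0 in Hopx-low, 166 ± 4.31 in Hopx-high and 60.5 ± 4.002 in naive cells, and Tnfrsf4, the receptor OX40, averaged 63.7 ± 9.37, 93.6 ± 22.2 and 6.29 ± 0.988 in the same order (SD, n = 3 each), which made it a plateau. These were the 3 called of 15 receptors of the family, where 0.822% of all features tested were called.

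Cd5, an inhibitory coreceptor that follows receptor signal strength, averaged 563 ± 113 in Hopx-low, 509 ± 8.15 in Hopx-high and 218 ± 41.1 in naive cells, and its relative Cd6 averaged 1119 ± 61.3, 969 ± 55.9 and 543 ± 63.4 (SD, n = 3 each). Every Hopx-low library of Cd6 was above the other 6. They were the 2 called of 29 genes of the receptor complex and its proximal signalling, where 0.822% of all features tested were called. Stat5a, a transducer of interleukin signals, had 756, 722 and 717 in Hopx-low, 616, 484 and 476 in Hopx-high and 272, 376 and 291 in naive libraries, with no overlap, and was the 1 called of 18 STAT and SOCS genes. Its contrast was 0.86 ± 0.15 (adjusted p = 0.0024).

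Il2ra, the high-affinity chain of the interleukin 2 receptor, had 17.0, 25.6 and 18.1 in Hopx-low, 7.07, 11.8 and 6.46 in Hopx-high and 4.93, 7.59 and 7.28 in naive libraries. The Hopx-low libraries were all above the other 6, but the contrast of 1.34 ± 0.33 missed the threshold (adjusted p = 0.057). Its adjusted p was below 0.05 in 5 of 24 other settings, whatever the threshold of the setting (adjusted p from 0.011 to 0.46). Cd69, an early activation marker, had 30.8, 37.9 and 46.3 in Hopx-low, 20.1, 30.3 and 19.3 in Hopx-high and 20.01, 32.1 and 16.0 in naive libraries, with overlap (contrast 0.74 ± 0.27, adjusted p = 0.35). Il2rb, the shared beta chain, ran another way: it had 646, 671 and 644 in Hopx-low, 876.5, 799.5 and 739.8 in Hopx-high and 6.24, 12.8 and 15.4 in naive libraries, a plateau with a contrast of 2.75 ± 0.20 (adjusted p = 1.5e-08). It was the 1 called of 26 cytokine receptors, where 0.822% of all features tested were called.

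Further peaks of at least median level were Irf8, a factor related to Irf4 (contrast 1.64 ± 0.22, adjusted p = 0.00011), Gadd45b, a stress-induced signalling protein (1.61 ± 0.22, adjusted p = 0.00014), and St6galnac4, a sialyltransferase gene (1.14 ± 0.20, adjusted p = 0.0025). In Irf8 the activated groups overlapped, and Hopx-low minus Hopx-high was 0.12 ± 0.25 (adjusted p = 0.89). Gadd45b had 119, 108 and 123 in Hopx-low, 92.7, 78.7 and 73.0 in Hopx-high and 11.1, 21.1 and 21.0 in naive libraries, with all groups apart. Bcl2l1, which encodes the survival protein BCL-XL, was the 1 called of 16 BCL2 family genes and averaged 179 ± 34.1 in Hopx-low, 167 ± 29.0 in Hopx-high and 45.4 ± 6.21 in naive cells (SD, n = 3 each). In all, 23 of the 48 peaks belonged to none of the 33 process lists. Over the 9 libraries, the genes of at least median level whose log2 levels ran most like those of Nfkbid were Tnfrsf1b (Pearson r = 0.952), Srm (0.952), Egr1 (0.948), Cad (0.946) and Ndufs8 (0.943). These r values describe points that share the same libraries and the same group steps.

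In a plateau the Hopx-low mean lay, on the log2 scale, past the midpoint between the other means on the side of the higher one, which was the Hopx-high mean in every plateau but Igfbp4. Lad1, an anchoring filament protein gene, had 150.5, 321 and 246.5 in Hopx-low, 194, 295 and 256 in Hopx-high and 0, 0.591 and 1.78 in naive libraries. The activated groups overlapped fully, and the contrast of 3.51 ± 0.29 (adjusted p = 8.1e-08) was the largest of all called genes. Eomes, a T-box factor, averaged 59.2 ± 16.4 in Hopx-low, 70.2 ± 6.39 in Hopx-high and 0.117 ± 0.203 in naive cells, and Acot7, an acyl-CoA thioesterase gene, averaged 73.2 ± 7.52, 86.5 ± 12.3 and 2.78 ± 1.68 (SD, n = 3 each). Naive levels this low rest on few reads, so the size of these contrasts depends on the pseudocount.

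Among plateaus 7 also passed as lower in Hopx-low than in Hopx-high cells, where 1.22% of all features tested were called lower, so that all 3 groups were told apart. Wnt10a, a WNT ligand, had 144, 127 and 115 in Hopx-low, 343, 312 and 258.5 in Hopx-high and 0.509, 0 and 1.13 in naive libraries. Cxcr5, the receptor that guides T cells to follicles, had 187, 266 and 226.5 in Hopx-low, 536, 510 and 382 in Hopx-high and 4.10, 6.71 and 4.45 in naive libraries. Their Hopx-low minus Hopx-high differences were -1.23 ± 0.28 (adjusted p = 0.018) and -1.07 ± 0.23 (adjusted p = 0.011). The others of the 7 were Endod1 and the histone genes Hist1h1b, Hist1h2ab, Hist1h2bm and Hist1h3c.

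Of regulatory T cell genes, 5 of 11 passed (Ikzf2, Ikzf4, Ctla4, Tnfrsf18 and Folr4), where 0.822% of all features tested did. The median contrast of the list was 1.10 beside -0.02, but the Hopx-low mean was the highest in 3 of the 11, Tnfrsf18 being the 1 called peak. Ikzf2, which encodes Helios, had 58.8, 82.1 and 71.6 in Hopx-low, 104, 229 and 149 in Hopx-high and 0, 1.27 and 0.4955 in naive libraries. Folr4, the folate receptor family member known as JUNO, averaged 616 ± 82.1, 807 ± 112 and 101.3 ± 5.86 in the same order (SD, n = 3 each). Foxp3, the lineage factor of that subset, had 4.55, 16.4 and 8.48 in Hopx-low, 8.88, 18.8 and 8.91 in Hopx-high and 2.11, 0.767 and 1.39 in naive libraries, and its contrast was 0.84 ± 0.42 (adjusted p = 0.63).

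Inhibitory receptors gave 3 of 8, where 0.822% of all features tested passed: Ctla4 at 36.7 ± 4.27 in Hopx-low, 43.6 ± 2.90 in Hopx-high and 0.602 ± 0.535 in naive cells, Lag3 at 43.7 ± 6.48, 60.4 ± 12.7 and 0.09845 ± 0.171, and the peak Cd5 (SD, n = 3 each). Pdcd1, which encodes PD-1, averaged 57.5 ± 14.7, 101.1 ± 9.42 and 8.85 ± 0.787 in the same order and did not pass (contrast 0.86 ± 0.22, adjusted p = 0.088). Its adjusted p was below 0.05 in 4 of 24 other settings, whatever the threshold of the setting (adjusted p from 0.028 to 0.73). Bcl6, the factor of follicular helper cells, averaged 75.02 ± 25.7 in Hopx-low, 102 ± 20.9 in Hopx-high and 17.8 ± 1.21 in naive cells, and Tbx21, which encodes T-bet, averaged 4.97 ± 2.29, 6.80 ± 5.55 and 0.492 ± 0.427 (SD, n = 3 each), with neither passing. Without Hopx-low replicate 1 the contrast of Bcl6 did pass, at 1.05 (adjusted p = 0.021) in place of 0.74, and over all settings its adjusted p ran from 0.021 to 1. Of 12 follicular helper genes 1 passed (Cxcr5) and in 0 was the Hopx-low mean the highest. Of 19 effector fate factors 3 passed (Eomes, Bhlhe40 and the peak Irf8), of 15 chemokine receptors 2 (Cxcr5 and Ccr8), of 10 MAPK feedback genes 2 (Dusp4 and the peak Spry1) and of 15 anergy ligases and kinases 2 (the peaks Egr2 and Egr3, which also stand in the early response list). Ccr8 and Dusp4 had an adjusted p below 0.05 in only 9 and 8 of 24 other settings, whatever the threshold of the setting.

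In cell division genes the Hopx-low mean was seldom outermost. It was the highest in 1 of 46 mitosis genes and 1 of 40 replication genes, beside 20.3% of all features tested, and the lowest in 6 and 7, beside 22.5%. Of 63 replication-dependent histones the Hopx-low mean was below the Hopx-high mean in 62 (over all features tested it was above in 60.9%) and called lower in 59, where 1.22% of all features tested were, and it was the highest in 0 and the lowest in 0. Hist1h1b had 332, 299 and 318 in Hopx-low, 1490, 1204 and 991 in Hopx-high and 8.86, 16.5 and 9.33 in naive libraries, with wide gaps between groups. It passed the contrast at 1.39 ± 0.19 (adjusted p = 0.00014) because on the log2 scale the middle group lay nearer to the upper one, and 4 histones did so. Reads from near-identical histone copies cannot be assigned with the counting rules unknown, so these values belong to the family more safely than to a gene. Of 46 mitosis genes 15, and of 40 replication genes 6, were also called lower in Hopx-low than in Hopx-high cells, with 0 called in the contrast in either list. Mki67, the proliferation marker, had 8.84, 22.0 and 19.9 in Hopx-low, 38.8, 129 and 80.5 in Hopx-high and 1.01, 1.41 and 0 in naive libraries.

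Igfbp4, a secreted binding protein of insulin-like growth factors and a marker of naive CD4+ T cells, was the 1 called gene that was lower in Hopx-low than in naive cells. It had 172, 304 and 292 in Hopx-low, 21.6, 23.4 and 25.5 in Hopx-high and 416, 709 and 700.2 in naive libraries. The groups were far apart, and Hopx-low minus Hopx-high was 3.35 ± 0.23 (adjusted p = 1.6e-08) while Hopx-low minus naive was -1.25 ± 0.23 (adjusted p = 0.00099), so that on the log2 scale, though not in levels, the larger step lay between the activated groups. It was the 1 called of 27 naive and quiescence genes, of which 10 were lower in Hopx-low than in naive cells (3.64% of all features tested were) and 17 lower in Hopx-high than in naive cells (15.1% of all features tested were).

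Under the main scaling no gene passed as a trough, and the 8 lower genes with an adjusted p under 0.1 included 7 with the Hopx-low mean lowest. The genes named next were chosen after their values were seen. Cwf19l2, which takes its name from a yeast splicing-associated protein, had 2.11, 4.26 and 5.01 in Hopx-low, 7.85, 7.87 and 10.8 in Hopx-high and 12.1, 29.5 and 12.4 in naive libraries (contrast -1.50 ± 0.37, adjusted p = 0.061). Crbn, which encodes the substrate receptor of an E3 ubiquitin ligase, had 7.83, 8.64 and 10.9 in Hopx-low, 12.7, 28.9 and 18.1 in Hopx-high and 22.6, 40.5 and 22.1 in naive libraries (contrast -1.24 ± 0.31, adjusted p = 0.065). In both, every Hopx-low library lay below the other 6, as in 66 of all features tested (0.583%), a number that came to between 109 and 236 without any 1 of Hopx-low replicates 1 to 3 or Hopx-high replicates 1 and 3. Il18r1, a chain of the interleukin 18 receptor, had 0, 4.97 and 0.521 in Hopx-low, 1.03, 7.25 and 1.95 in Hopx-high and 21.0, 16.0 and 18.3 in naive libraries, and the activated groups overlapped.

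Cdkn2d, an inhibitor of cyclin-dependent kinases, averaged 94.1 ± 19.4 in Hopx-low, 116 ± 18.5 in Hopx-high and 197 ± 26.9 in naive cells (SD, n = 3 each; contrast -0.69 ± 0.18, adjusted p = 0.083). Tagln2, an actin-binding protein gene, had the smallest adjusted p among lower genes (0.057) and averaged 228 ± 11.7, 230.2 ± 52.1 and 563 ± 67.7 in the same order, the mirror image of a plateau. Its Hopx-low and Hopx-high means were nearly equal, and on the log2 scale, which sets the shape, the Hopx-low mean was the higher by 0.01 ± 0.18. Of 53 interferon-stimulated genes 0 passed, the Hopx-low mean was the lowest in 9 and the highest in 2, and the median contrast was -0.27. Against naive cells 20 were called lower in Hopx-low cells and 33 in Hopx-high cells, where 3.64% and 15.1% of all features tested were. Lower calls did appear under other scalings, 12 with upper-quartile scaling, 8 with quantile normalization and 5 with totals without Lars2. All of these had the Hopx-low mean lowest, so the absence of called troughs depended on the scaling.

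The other 14 process lists also held no called gene. Among 22 genes of cholesterol synthesis the Hopx-low mean was the highest in 14 (63.6%), among 24 heat shock and unfolded protein genes in 12 (50.0%), and among 62 genes of oxidative phosphorylation in 29 (46.8%), beside 20.3% of all features tested, with median contrasts of 0.23, 0.16 and 0.16. The oxidative phosphorylation share depended on the scaling. It was 29% with upper-quartile scaling, beside 20.4% of all features tested. With quantile normalization and with totals without Lars2 it was 33.9%, beside 22.6% and 21.9%. The cholesterol and heat shock shares did not fall under these scalings. Hspa1a, an inducible heat shock gene, spread from 127.5 to 766 in Hopx-low, 97.1 to 443 in Hopx-high and 11.7 to 319 in naive libraries, more within groups than between them. The median contrast was 0.23 over 26 glycolysis genes, 0.38 over 13 TNF superfamily and cytokine ligands, 0.18 over 6 AP-1 and BATF partners, 0.06 over 22 G1 cyclins, CDKs and CDK inhibitors and 0.06 over the 78 ribosomal proteins. It was -0.04 over 30 chromatin silencing genes, -0.11 over 14 noncoding RNAs and snoRNA hosts, -0.18 over 22 integrins and adhesion receptors and -0.23 over 6 cytotoxic granule and NK receptor genes. Over the mitosis and the replication genes it was 0.07 and 0.08.

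**Figure D4:**
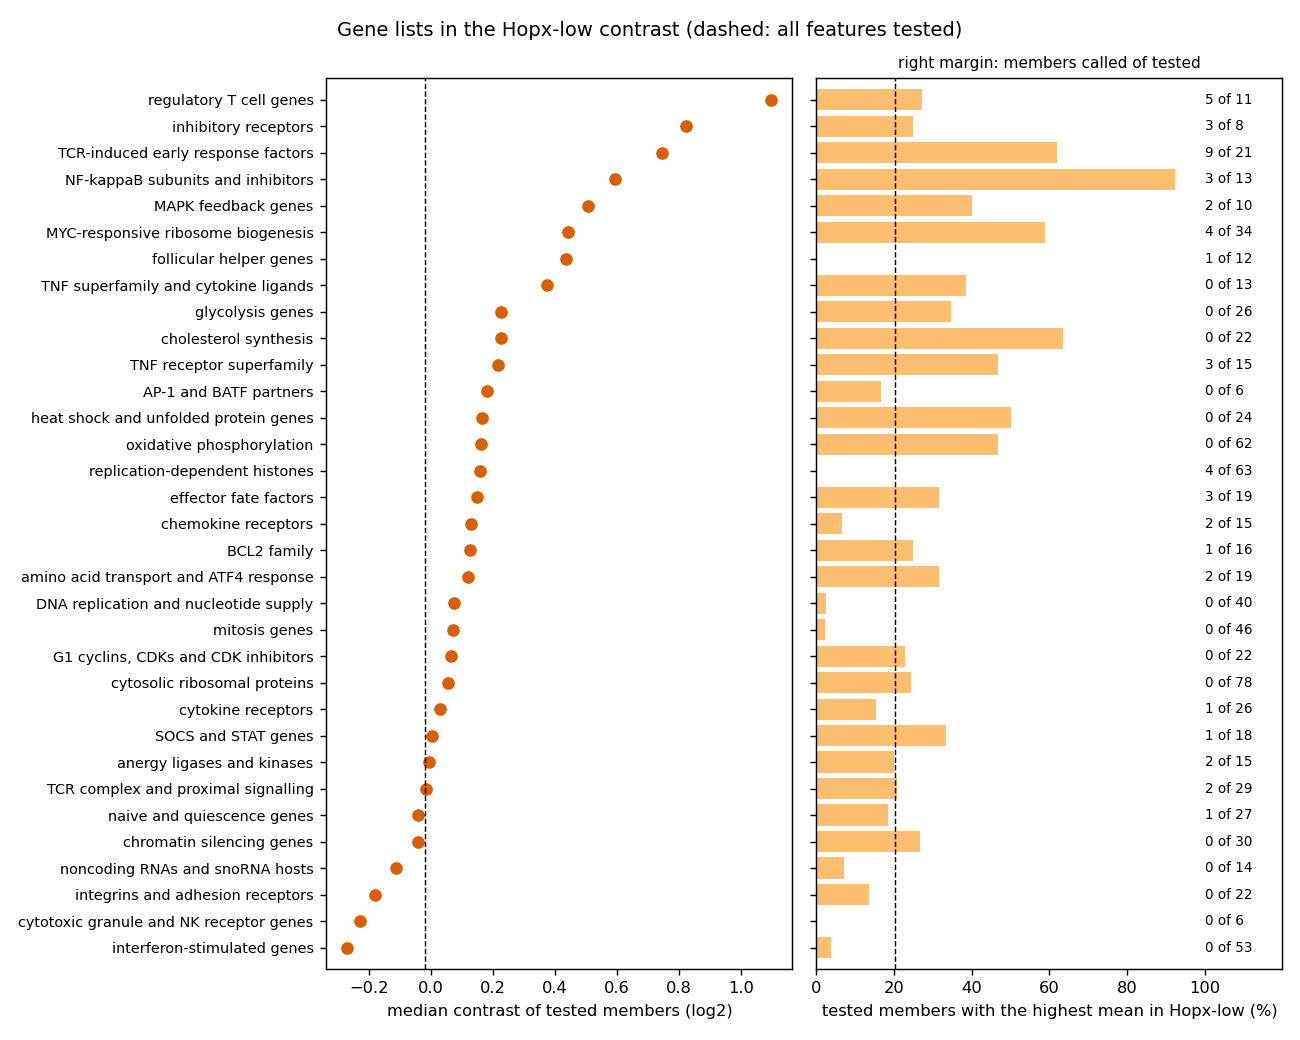
Median Hopx-low contrast of the tested members of each of 33 process lists in log2 units (left) and the share of members whose mean was highest in Hopx-low cells in percent (right), with dashed lines at the values over all features tested (-0.02 and 20.3%). The NF-kappaB, cholesterol, early response and ribosome biogenesis lists have the longest bars, and the regulatory T cell list has the highest median with a bar of 27.3%.

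Sums of B cell and of monocyte and macrophage markers were lower in every Hopx-low than in every Hopx-high library and overlapped the naive range, while erythroid sums overlapped between all groups. The 12 B cell markers in the table summed to 14.1 to 22.0 in Hopx-low, 66.7 to 109.5 in Hopx-high and 15.7 to 62.3 in naive libraries. Of the 9 tested, 8 had their lowest mean in Hopx-low cells, 0 passed the contrast, and Cd79a, Cd79b and Cd22 were called lower in Hopx-low than in Hopx-high cells. The 15 monocyte and macrophage markers summed to 18.5 to 55.2, 84.6 to 165 and 25.1 to 57.3 in the same order, with 6 of 10 tested lowest in Hopx-low. Erythroid markers summed to 33.7 to 63.2, 48.7 to 126.5 and 39.0 to 112, and dendritic cell markers to 65.9 to 75.7, 45.7 to 59.4 and 97.3 to 174. The dendritic cell sums did not follow most tested members. Of the 4 tested, 1 had its Hopx-low mean above the Hopx-high mean, and their median Hopx-low minus naive difference was 0.26. The part of such cells in the results above was not tested.

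The remaining marker lists were low or level. Plasma cell markers summed to 45.3 to 76.1 in Hopx-low, 42.7 to 60.7 in Hopx-high and 45.3 to 72.0 in naive libraries, neutrophil markers to at most 8.05, platelet markers to at most 4.03 and gamma-delta and NKT cell markers to at most 1.78. The natural killer list reached 42.2 to 75.04, 71.8 to 85.0 and 1.45 to 6.12 through Eomes, which activated CD4+ T cells can also express. Stromal and endothelial markers summed to 124 to 188, 126 to 179 and 174 to 238. Among the markers listed at 0 in every library were Tnfrsf17, Klra8, Xcr1, S100a8, Mpo, Elane, Cxcr2, Pf4, Gp1ba, Col3a1, Vwf, Lyve1 and Ccl21a.

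**Figure D5:**
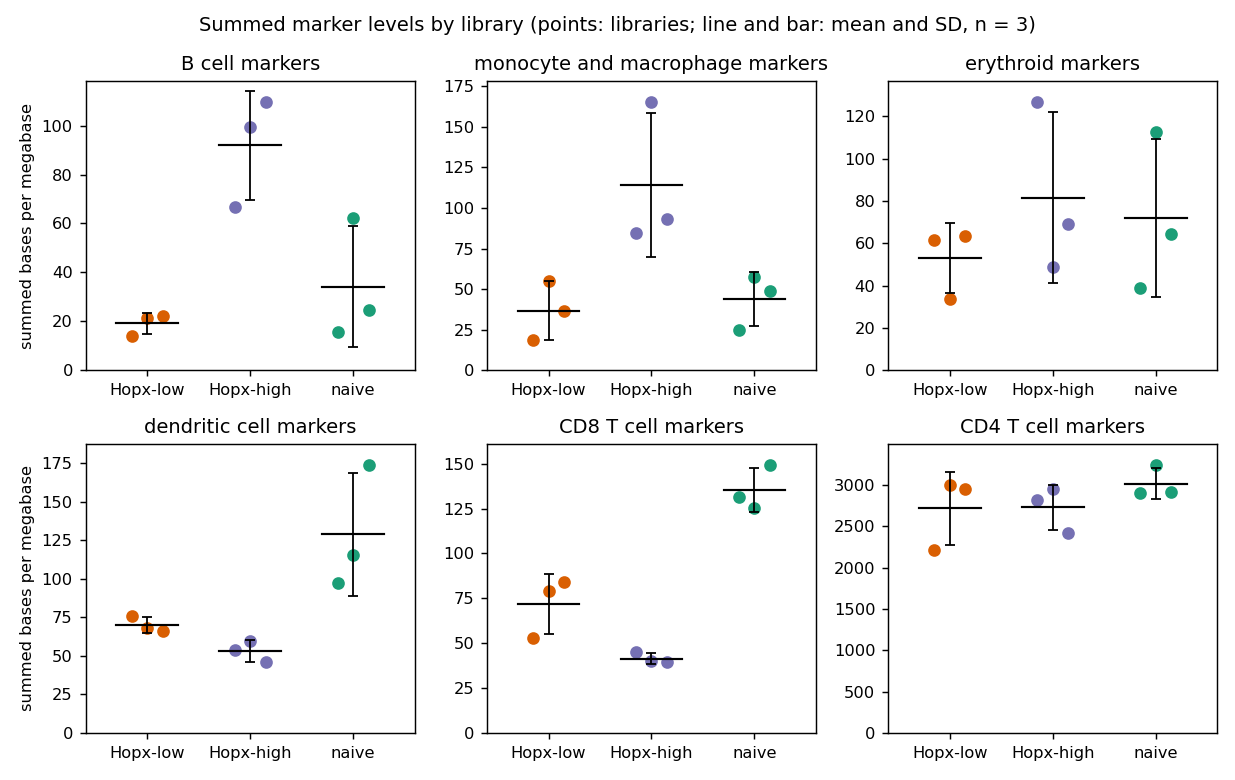
Summed levels of 6 marker lists in bases per megabase, with 1 point per library, a line at the group mean and a bar of 1 SD (n = 3). Sums of B cell and monocyte markers are highest in all 3 Hopx-high libraries, and sums of CD8 and dendritic cell markers are highest in naive libraries. CD4 T cell sums lie between 2208 and 3238.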

How the data were processed

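The authors deposited 1 table of signal per feature for the 9 total RNA libraries, made after ribosomal RNA depletion with an Ion Total RNA kit, per the labels. The submitters' processing notes name mm10 and bedtools, with aligner, annotation, strand and multiple matches not given in the sources used here. From the values, each deposited signal is 1 more than a feature's aligned bases, multiplied by a library factor: division by the smallest value of a column gave whole numbers for 100% of values within a tolerance of 1e-04. These are bases of coverage and not reads, so no count test was used. All 9 columns had a sample. Small RNA libraries were not used here.

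Bases were divided by the library total and multiplied to bases per megabase, 1 was added, and log2 values were fitted with limma 3.58.1 in R 4.3.3 (lmFit, then eBayes with trend and robust on), all 9 libraries sharing an estimate of the spread. A feature was tested where 3 or more libraries reached a level of 1 (11320 features; 8904 were at 0 in every library and 2995 others fell short), and a Benjamini-Hochberg adjusted p below 0.05 was called. The tests were tried on simulated data first. Log2 levels of libraries correlated at 0.951 to 0.977 within groups and 0.856 to 0.954 between them, and at most 1.53% of features had equal bases in 2 libraries of a group, so none was treated as deposited more than once.

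Named were Hopx, every gene called at both steps, the 12 largest peaks and the 6 largest plateaus among called genes of at least median level, up to 3 called members of each list, the 5 genes nearest to Nfkbid and a fixed set of 17 genes. Some genes outside this rule are named as examples or as members of a small count, after their values were seen. The comparison, the 33 process lists and the 12 marker lists were chosen with earlier results of these data known, so none of them is independent support. Positions and sequences come from RefSeq tables of GRCm38.p6 (10496 of 11320 names matched). Python 3.11.15, pandas 2.3.3, numpy 2.4.6 and matplotlib 3.10.9 were used for tables, sequences and figures. Alternatives were other scalings, filters, pseudocounts, thresholds and limma settings, the replicate number as a block, and libraries left out.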

Additional observations from a re-analysis of the deposited data

How the results depend on the processing

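The contrast called 93 genes, and over the alternatives no named gene changed the direction of a called contrast. Lower calls, 0 above, were 12 with upper-quartile scaling, 8 with quantile normalization and 5 without Lars2 in the totals, all with the Hopx-low mean lowest. Quantile normalization called 141, plain limma (no trend, not robust) 48, testing against a fold of 1.2 47, replicates 1 and 2 alone 23, an adjusted p below 0.01 60, and single libraries left out 38 to 105, with 38 and 44 without Hopx-low replicates 3 and 2. Genes passing at both steps, 5 above, were 9 with quantile normalization, 8 without Lars2 in the totals, 2 on the deposited scale (Nfkbid and Myc), 3 with plain limma (Nfkbid of the 5), 5 with no filter (Nfkbid and Myc of the 5), 1 against a fold of 1.2 (Nfkbid), 3 with a pseudocount of 0.1 (Nfkbid, Myc and Nr4a1), 0 with replicates 1 and 2, 3 without both libraries rich in Lars2, 2 and 11 at adjusted p below 0.01 and 0.1, and 1 to 8 with single libraries left out. Called genes with the Hopx-low mean outermost, 48 above, were 75 without Lars2 in the totals, 21 with plain limma, 19 against a fold of 1.2, 6 with replicates 1 and 2, 28 at the stricter threshold and 13 to 64 with single libraries left out. Genes with all Hopx-low libraries outside the other 6, 241 above and below together, were 919 with replicates 1 and 2, 1041 without both libraries rich in Lars2 and 294 to 822 with single libraries left out, in part because fewer libraries are compared. Called list members, 42, were 19 with plain limma, 21 against a fold of 1.2, 13 with replicates 1 and 2 and 20 to 47 with single libraries left out. Apart from fewer samples or genes entering a test, the causes were not tested. Deviations of same-numbered libraries from their group means correlated weakly and with both signs (r from -0.132 to 0.191), and the main fit did not take the numbers as pairs. Between Hopx-low and Hopx-high libraries, however, r was 0.191, 0.141 and 0.061 for numbers 1, 2 and 3. Differently numbered libraries of those groups had r from -0.149 to 0.057. Pairing between those groups is therefore not excluded. With the replicate block 86 genes were called, 84 of them among the 93, and 5 passed at both steps, among them Nfkbid, Myc, Nr4a1 and Cad but not Cluh, which missed the contrast too. Depth limits genes of a few units, which rest on single reads, above all in the libraries of 104.9 and 109.7 megabases.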
